A study of Mus musculus with 6 samples.

Results

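The hypoxia-inducible factor (HIF) system was described in 344SQ murine lung cancer cells through 10 genes: the HIF alpha subunit genes Hif1a and Epas1, the prolyl hydroxylase genes Egln1, Egln2 and Egln3, and the HIF target genes Ankrd37, Car9, Vegfa, Bnip3 and Kdm3a. Members were found as probe sets whose platform annotation gives 1 of these symbols and no other, which gave 17 of the 45037 non-control probe sets. All 10 genes were measured, among 18193 genes in all. There were 3 Affymetrix arrays of cells with a control short hairpin RNA (shRNA) and 3 of cells with an shRNA against Pik3ca, which encodes a catalytic subunit of phosphoinositide 3-kinase (PI3K). The 344SQ line comes from a mouse lung adenocarcinoma. Both groups were grown in RPMI with 10% serum, and the hairpin vectors went in by lipid transfection. The labels name no low-oxygen treatment in either group and do not say whether replicates are separate cultures. The p-values cover no more than the spread among these arrays, which may be technical.

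HIF is a transcription factor made of an oxygen-regulated alpha subunit and the stable beta subunit ARNT. With oxygen present, the EGLN prolyl hydroxylases modify the alpha subunit, the von Hippel-Lindau ubiquitin ligase binds it and it is degraded. When oxygen is short, the alpha subunit accumulates and HIF switches on genes of glycolysis, blood vessel growth, pH control and mitophagy. Egln1, Egln3 and Kdm3a are themselves HIF targets, and PI3K signalling through mTOR is known to raise synthesis of the HIF-1 alpha protein. The arrays measured RNA and give no protein level.

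Values are linear intensities scaled to a common median. A change is the mean log2(intensity + 16) of the PIK3CA shRNA arrays minus that of the control arrays, a scale on which changes of dim genes come out too small. A gene is represented by its brightest probe set, and it is said to have risen or fallen where limma's adjusted p over all genes was under 0.05. Pik3ca itself read 2450, 2324 and 2364 in the control arrays and 1249, 1237 and 1220 in the PIK3CA shRNA arrays, a change of -0.94 (adjusted p = 0.000762). Of 10 epithelial markers, 8 lay above the median of all probe sets, the brightest being keratin 18 (Krt18), which averaged 13910 in control and 14209 in PIK3CA shRNA arrays. Of the other two, Cldn4 averaged 82.2 and 99.2, and Esrp1 was below 16 on every array. Of 7 lung alveolar markers, 3 lay above that median, Sftpb (1223 and 1389), Abca3 (551 and 539) and Sftpd (157 and 175), while Nkx2-1 (116 and 102) and Sftpc (94.2 and 90.2) lay below it with Sftpa1 and Napsa. Above the same median lay 3 of 9 leukocyte, 2 of 8 endothelial and 3 of 8 fibroblast markers. The summed level of the 9 leukocyte markers lay between 897 and 1175 in control and between 988 and 1191 in PIK3CA shRNA arrays. For 8 endothelial markers these ranges were 930 to 950.5 and 890.0 to 1045, and for 8 fibroblast markers 831 to 933 and 699 to 1137. Tie1 and Pdgfrb were below 16 on every array, and of all these markers 1 passed the test, the fibroblast gene Dcn, which fell by 0.75 (adjusted p = 0.00918).

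The stretch upstream of a start site is where HIF contacts many of its targets, through the core letters ACGTG or GCGTG. RefSeq start sites on build GRCm38.p6 gave 13 windows of 250 bases before the start for 9 of the members. A search on both strands, in which overlapping matches count separately, found these letters in 10 of the 13 windows (76.9%) and in at least 1 window of each of the 9 genes, against 38.6% of all 32851 windows. A gene with several start sites has several windows, so the gene count is not comparable with that share. Shown are the 4 called members with a window, followed by Egln3 and Bnip3 as examples of HIF targets that did not pass the test and have a match. Each sequence runs 5′ to 3′ toward the start site, with the searched letters or their reverse complement in capitals.

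Ankrd37, chr8:45999851-46000100, minus strand: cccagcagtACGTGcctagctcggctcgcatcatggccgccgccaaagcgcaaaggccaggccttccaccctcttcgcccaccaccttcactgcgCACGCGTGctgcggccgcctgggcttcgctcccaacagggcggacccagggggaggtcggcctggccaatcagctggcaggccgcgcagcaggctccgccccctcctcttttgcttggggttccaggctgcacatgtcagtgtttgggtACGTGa
Egln1, chr8:124949255-124949504, minus strand: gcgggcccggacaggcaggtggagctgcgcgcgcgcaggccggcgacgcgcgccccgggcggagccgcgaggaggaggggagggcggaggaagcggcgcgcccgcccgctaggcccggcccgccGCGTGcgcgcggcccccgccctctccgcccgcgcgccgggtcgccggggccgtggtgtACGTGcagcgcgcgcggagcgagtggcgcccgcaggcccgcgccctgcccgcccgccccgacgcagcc
Car9, chr4:43506776-43507025, plus strand: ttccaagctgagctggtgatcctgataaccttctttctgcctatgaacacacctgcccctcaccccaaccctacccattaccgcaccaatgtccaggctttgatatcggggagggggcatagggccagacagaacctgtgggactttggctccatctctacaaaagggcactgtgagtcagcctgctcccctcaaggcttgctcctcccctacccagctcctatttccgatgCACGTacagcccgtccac
Kdm3a, chr6:71632918-71633167, minus strand: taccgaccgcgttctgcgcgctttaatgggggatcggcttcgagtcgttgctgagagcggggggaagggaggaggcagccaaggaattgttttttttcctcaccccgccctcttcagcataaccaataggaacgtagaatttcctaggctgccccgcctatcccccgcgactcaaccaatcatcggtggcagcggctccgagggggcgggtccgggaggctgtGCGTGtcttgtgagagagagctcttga
Egln3, chr12:54203875-54204124, minus strand: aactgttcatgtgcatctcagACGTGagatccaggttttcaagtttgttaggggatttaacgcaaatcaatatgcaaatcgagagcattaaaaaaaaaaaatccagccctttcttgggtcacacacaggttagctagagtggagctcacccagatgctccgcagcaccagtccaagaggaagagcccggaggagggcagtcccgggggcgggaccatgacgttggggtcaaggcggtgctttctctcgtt
Bnip3, chr7:138909507-138909756, minus strand: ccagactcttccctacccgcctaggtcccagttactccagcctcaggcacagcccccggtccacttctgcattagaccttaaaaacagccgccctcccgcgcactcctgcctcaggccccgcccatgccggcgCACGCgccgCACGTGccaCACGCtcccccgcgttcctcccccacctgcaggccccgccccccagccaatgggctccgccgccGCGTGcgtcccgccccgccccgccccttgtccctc

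The Ankrd37 window held 4 matches, the nearest beginning 6 bases before the start, and 2.58% of all windows held 4 or more, counted the same way. Of these 4 matches, 2 overlap in the palindrome CACGCGTG, so the window held 3 separate runs of capitals. The Egln1 window held 2 matches, at 68 and 126 bases. Car9 and Kdm3a had 1 match each, at 18 and 27 bases, and the other 2 Kdm3a windows had none. Vegfa, a target that did not pass and is not shown, had no match in the window at chr17:46032378-46032627. Its 2 matches were in its other window, at chr17:46025164-46025413, which lies downstream of the first on the minus strand. Bnip3 had 5 matches, of which 2 are the same palindrome read on both strands. A match is a description of letters and not a measured binding site.

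Of the 10 members, 3 rose (Epas1, Car9 and Kdm3a), 2 fell (Ankrd37 and Egln1) and 5 did not pass the test (Hif1a, Egln2, Egln3, Vegfa and Bnip3). Over all genes, 11.5% passed in either direction, 5.88% higher and 5.62% lower. The arrays of the groups did not overlap in 8 of the 10 members, against 33.1% of all genes. Only 2 of the 10 members were below the median brightness of all genes, and brighter genes were called more often. With dim genes left out, 6 of the 8 members that remained passed, against 3024 of 9097 genes. The median change of the members was -0.04 and that of all genes -0.01, while the median size of change was 0.28 and 0.17. The members' count fell to between 3 and 4 when 1 array was left out, where the count of all genes fell from 2093 to between 945 and 1138. The members' count was 3 without control replicate 1 and without PIK3CA shRNA replicates 1 or 2, and 4 without any of the others. The members had been put together with results of these arrays known, so the count is a description.

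**Figure D1:**
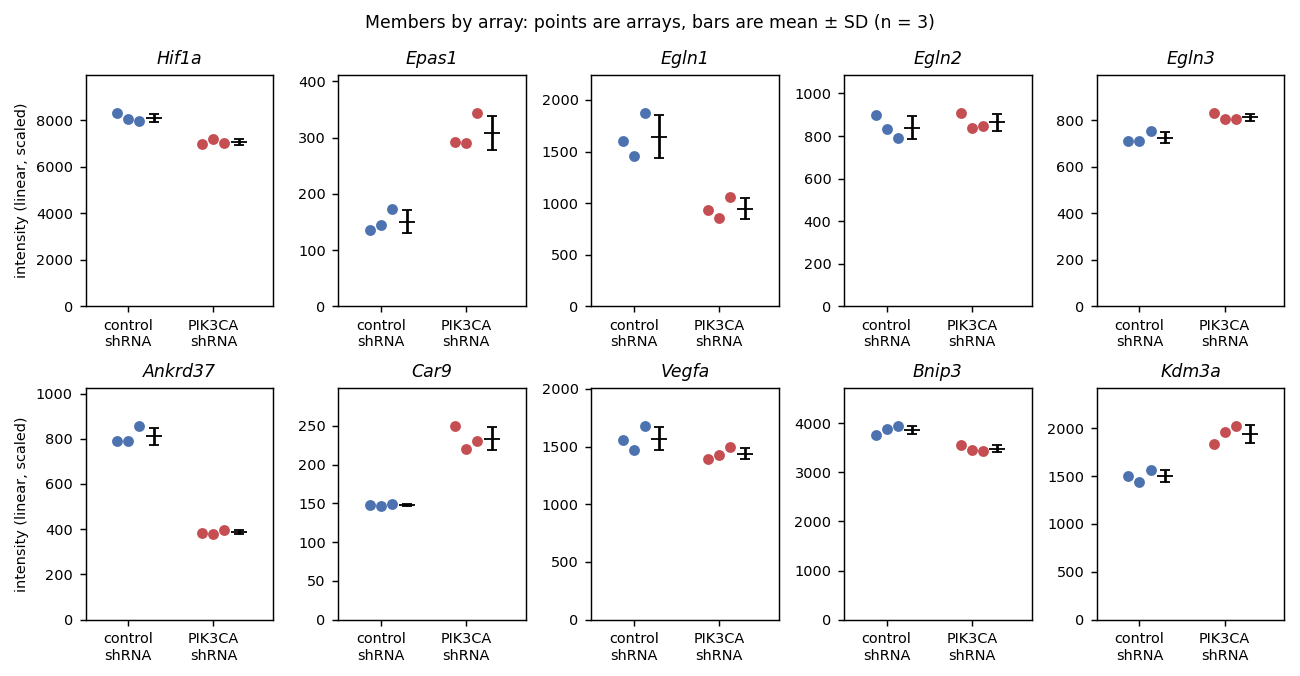
Scaled linear intensity of the 10 members on each array, by the brightest probe set, with every axis starting at 0. Blue points are the 3 control shRNA arrays, red points the 3 PIK3CA shRNA arrays, and the bars beside them are mean ± SD. Groups overlap in Egln2 and Vegfa, and the means differ by the largest ratios in Ankrd37 (811 against 387) and Epas1 (151 against 309).

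Of the alpha subunit genes, Epas1 rose and Hif1a did not pass the test. Epas1 encodes HIF-2 alpha, the subunit known from endothelium and alveolar cells. Its intensity was 135, 144 and 173 in the control arrays and 293, 289.9 and 344 in the PIK3CA shRNA arrays. Every PIK3CA shRNA array was above every control array. Epas1 rose by 0.96 with a standard error of 0.12 (95% interval 0.68 to 1.25, adjusted p = 0.00807), to 205% of control, and it kept its call without any 1 of the arrays (adjusted p 0.0156 to 0.0407). It was below the median brightness of all genes. Its other probe set was dimmer still, at 14.9, 20.03 and 6.55 in control and 54.2, 25.5 and 32.6 in PIK3CA shRNA arrays, and its change of 0.83 did not pass over all probe sets (adjusted p = 0.149).

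Hif1a encodes HIF-1 alpha, the widely expressed subunit. Its brightest probe set read 8300, 8051 and 7961 in control and 6958, 7199 and 7014 in PIK3CA shRNA arrays. The groups did not overlap, but the change of -0.20 (95% interval -0.33 to -0.06) did not pass the test (adjusted p = 0.0773). It passed at a pseudocount of 64 (0.0438), with dim genes left out (0.0157) and with an intensity trend and robust prior (0.00216). A second Hif1a probe set read 2305, 2437 and 2414 in control and 1726, 1872 and 1788 in PIK3CA shRNA arrays, and it fell by 0.41 in the fit over all probe sets (adjusted p = 0.0366). The remaining 2 Hif1a probe sets had changes of -0.27 and -0.46, with overlapping groups. All 4 Hif1a estimates were therefore below 0, and 1 of them passed.

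Of the prolyl hydroxylase genes, Egln1 was the 1 that fell. Egln1 encodes PHD2, the main oxygen sensor for HIF-1 alpha. Its intensity was 1605, 1456 and 1872 in control and 933, 855 and 1056 in PIK3CA shRNA arrays, with all PIK3CA shRNA arrays below the control arrays. Egln1 changed by -0.78, standard error 0.13 (95% interval -1.09 to -0.47, adjusted p = 0.0179), or 57.7% of the control mean. The adjusted p was 0.0633 without control replicate 1, 0.0681 without PIK3CA shRNA replicate 1 and 0.0573 without PIK3CA shRNA replicate 2. A second Egln1 probe set went from 615 ± 107 to 414 ± 75.1 (SD, n = 3 each), a change of -0.55 that did not pass over all probe sets (adjusted p = 0.182).

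Egln2 encodes PHD1, a nuclear hydroxylase. It read 898, 832 and 790.0 in control and 907, 836 and 849 in PIK3CA shRNA arrays. The groups overlapped, and the interval of the change ran from -0.14 to 0.22. Egln3 encodes PHD3, whose gene is a HIF target in many cells. Its brighter probe set went from 711, 711 and 751 to 829.6, 803 and 803, without overlap, a change of 0.16 (adjusted p = 0.143). Its dimmer probe set went from 292, 276 and 232 to 389.9, 372 and 360.3, also without overlap, a change of 0.47 (adjusted p = 0.0667 over all probe sets). As the mean of both probe sets Egln3 passed, at 0.32 (adjusted p = 0.0421).

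**Figure D2:**
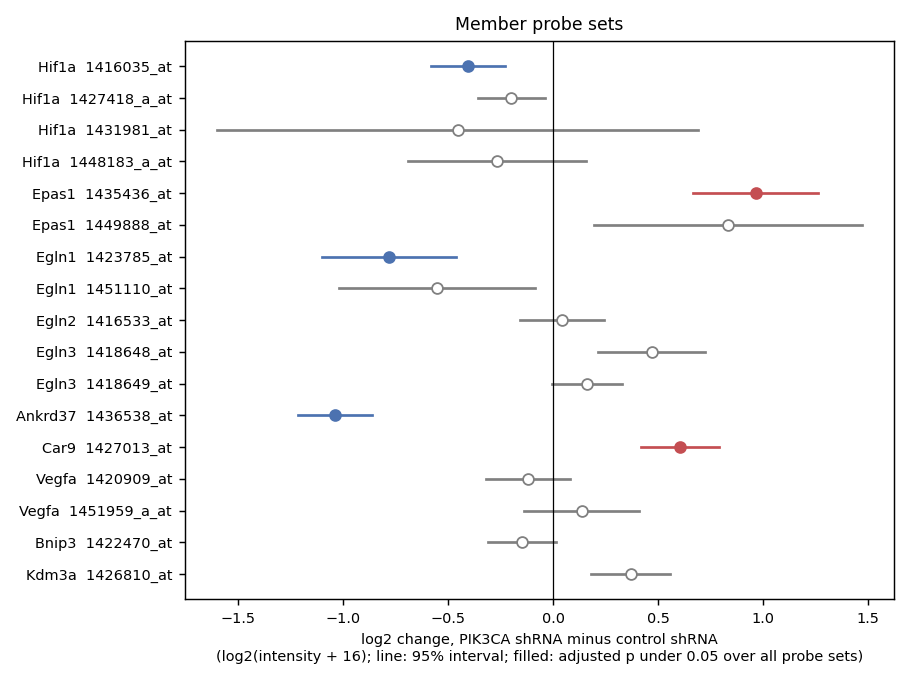
Log2 change of each of the 17 member probe sets, PIK3CA shRNA minus control shRNA, with its 95% interval from the limma fit over all 45037 non-control probe sets. Filled points passed adjusted p 0.05 over all probe sets: red is higher and blue is lower. The 2 filled red points are Epas1 and Car9, and the 3 filled blue points are Hif1a, Egln1 and Ankrd37.

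At the level of probe sets, 5 of the 17 passed, 2 higher and 3 lower, against 4.94% of all non-control probe sets (2.64% higher and 2.30% lower). In 12 of the 17 the groups did not overlap, against 27.3% of all. The plot of probe set changes shows that probe sets of 1 gene had the same sign for Hif1a, Epas1, Egln1 and Egln3, and opposite signs for Vegfa.

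Ankrd37 and Car9 are both strongly hypoxia-inducible, and they changed in opposite directions. Ankrd37, which encodes an ankyrin repeat protein, read 788, 791 and 854 in control and 383, 381 and 397 in PIK3CA shRNA arrays. It fell by 1.04 with a standard error of 0.06 (95% interval -1.19 to -0.89, adjusted p = 0.000805), to 47.7% of control, and it passed under all 18 alternatives of the fit at the same threshold (adjusted p 4.03e-05 to 0.0245). Car9 encodes carbonic anhydrase IX, a cell-surface enzyme of pH control. Its intensity was 148, 146 and 149.6 in control and 249, 219.8 and 231 in PIK3CA shRNA arrays. Car9 rose by 0.60 with a standard error of 0.07 (95% interval 0.44 to 0.77, adjusted p = 0.00584), to 158% of control, from a level below the median brightness of all genes. Without any 1 of the arrays its adjusted p was 0.0186 to 0.0329. With replicate number as a block in the fit it did not pass (adjusted p = 0.0561), and Car9 has 1 probe set only.

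Kdm3a encodes a histone H3 lysine demethylase that is induced in hypoxia. It went from 1502, 1434 and 1559 in control to 1839, 1963 and 2018 in PIK3CA shRNA arrays, without overlap. It rose by 0.37, standard error 0.07 (95% interval 0.20 to 0.54, adjusted p = 0.0256). Its call was lost without any 1 of the 6 arrays: the adjusted p was 0.0813, 0.0858 and 0.0612 without control replicates 1, 2 and 3, and 0.0554, 0.0782 and 0.0899 without PIK3CA shRNA replicates 1, 2 and 3.

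Vegfa and Bnip3, among the best-known HIF targets, did not pass. Vegfa, the main angiogenic growth factor, read 1555, 1472 and 1673 in control and 1395, 1427 and 1495 in PIK3CA shRNA arrays, with overlap between the groups. The change was -0.12 (95% interval -0.30 to 0.06, adjusted p = 0.369), and the second Vegfa probe set read 0.14 with an interval of -0.14 to 0.41. Bnip3, a mitophagy receptor of the outer mitochondrial membrane, read 3767, 3881 and 3933 in control and 3563, 3448 and 3429.7 in PIK3CA shRNA arrays. These did not overlap, and the change was -0.15 (95% interval -0.28 to -0.01, adjusted p = 0.159). Bnip3 passed with dim genes left out (adjusted p = 0.0449) and with an intensity trend and robust prior (0.0208).

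The called members were also set against their place in the genome, since the median change of some chromosomes departed from 0. Ankrd37 and Egln1 both lie on chromosome 8, where 198 of 932 genes (21.2%) fell, against 5.62% of all genes, and where the median change of the 512 brighter genes was -0.25. Kdm3a lies on chromosome 6, where 117 of 992 genes (11.8%) rose, against 5.88% of all genes, and the median change of the 423 brighter genes was 0.18. For chromosomes 4 and 17, which carry Car9 and Epas1, the medians were -0.03 and -0.02.

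Next to Egln1, 9 of the 10 nearest tested genes, 5 on each side in RefSeq order, had a change below 0, with a median of -0.33. Egln1 was lower than all but 1 of them. The 10 neighbours of Ankrd37 had a median of -0.29 and ran from -0.71 to 0.90, all above Ankrd37. Of these neighbours, 4 fell and 1 rose. The neighbours of Kdm3a had a median of 0.12, 8 of 10 were above 0, and Kdm3a was above all 10. With the median of each chromosome taken out of each array, Ankrd37 changed by -0.75 (adjusted p = 0.00245), Egln1 by -0.49 (0.0714) and Kdm3a by 0.18 (0.153). On the same basis Epas1 changed by 0.99 (adjusted p = 0.00804) and Car9 by 0.59 (0.00596). The neighbours of Epas1 had a median of -0.26 and those of Car9 -0.05, and both members stood above all 10 of their neighbours. What part the position has in the Ankrd37, Egln1 and Kdm3a changes was not tested beyond these values.

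**Figure D3:**
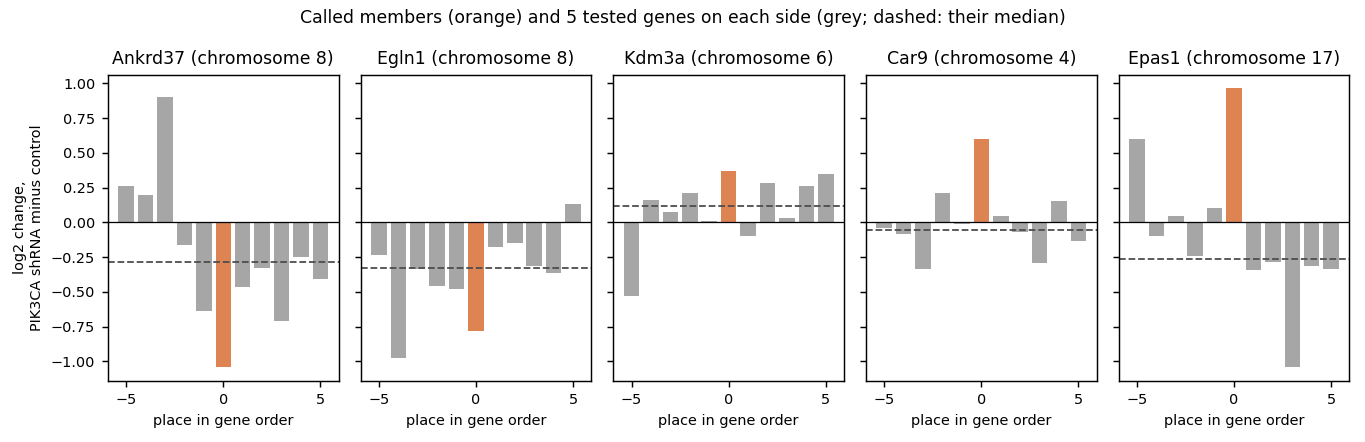
Log2 change (PIK3CA shRNA minus control shRNA) of the 5 called members, in orange, and of the 5 tested genes on each side in chromosome order, in grey. The dashed line is the median of the 10 neighbours, at -0.29 for Ankrd37, -0.33 for Egln1, 0.12 for Kdm3a, -0.05 for Car9 and -0.26 for Epas1.

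The wider pathway was described with 7 lists, of which 136 genes were measured. Of these, 18 rose and 10 fell (20.6%, against 11.5% of all genes), the members included. The gap was smaller among brighter genes: with dim genes left out, 36 of 98 list genes passed, against 3024 of 9097 genes. The number of called list genes was 13 to 15 in fits that left out 1 array, where 945 to 1138 of all genes passed. It was 13 without control replicate 1 or PIK3CA shRNA replicate 1. Without PIK3CA shRNA replicate 3 it was 14, and without each of the others 15. It was 18 when probe sets of a gene were averaged, where 1510 of all 18193 genes passed. With the probe set of the largest interquartile range it was 17, where 1554 of all genes passed. The median change was 0.0022 over the lists and -0.01 over all genes.

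Of 22 measured genes for HIF subunits, oxygen sensing and the VHL complex, 2 rose and 2 fell (18.2%), with a median change of 0.02. Besides Epas1 and Egln1 these were Crebbp and Siah1a. Crebbp encodes CBP, a coactivator recruited by HIF. It read 1021, 1109 and 1149 in control and 2013, 2005 and 2118 in PIK3CA shRNA arrays, a rise of 0.90 (adjusted p = 0.00218), and all 4 of its probe sets passed. The 10 neighbours of Crebbp on chromosome 16 had a median change of 0.43, and 6 of them rose. Siah1a encodes a ubiquitin ligase of a family that acts on EGLN proteins. It went from 1490.0, 1589 and 1548 to 733, 515 and 715, a fall of 1.23 (adjusted p = 0.00767), and like Egln1 it lies on chromosome 8. With chromosome medians taken out Siah1a changed by -0.95 (adjusted p = 0.0245). Siah1a has close relatives, and another 2 of its 3 probe sets read -0.26 each without passing.

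The other core components did not pass. The beta subunit gene Arnt had a change of -0.03 (95% interval -0.25 to 0.19) and Vhl one of 0.01 (-0.36 to 0.39). Hif1an, which encodes the asparaginyl hydroxylase FIH, had a change of -0.0037 (-0.32 to 0.32). Hif3a, another alpha subunit gene, had -0.19 by its brightest probe set and 0.60 by the one with the largest interquartile range, neither past the threshold.

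Among 18 glycolytic HIF targets 3 rose and 2 fell (27.8%), with a median of 0.02. Pdk3, a kinase that inhibits pyruvate dehydrogenase in the mitochondrion, went from 681, 610.1 and 589 to 340.2, 328 and 351, a fall of 0.85 (adjusted p = 0.00328). Slc16a3, the lactate exporter MCT4, fell by 0.73 (adjusted p = 0.0144) and kept its call in 3 of the 6 fits without 1 array. The rises were in the aldolase gene Aldoc (0.76), the triosephosphate isomerase gene Tpi1 (0.25) and the hexokinase gene Hk2 (0.37). Aldoc kept its call in 1 of those 6 fits (adjusted p 0.0259 to 0.0933), while Tpi1 (0.0890 to 0.111) and Hk2 (0.0722 to 0.137) kept theirs in none of them.

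Among 42 other hypoxia-inducible genes 6 rose and 5 fell (26.2%), with a median of -0.11. The mitochondrial adenylate kinase gene Ak4 went from 178, 150.4 and 141 to 401, 423 and 451, a rise of 1.36 (adjusted p = 0.00179) that passed in 2 of its 5 probe sets. Of the 10 neighbours of Ak4 on chromosome 4, 4 rose and 1 fell, with a median change of 0.06. Jak1 (1.99) and Leprot (2.16) among them rose by more than Ak4. Angptl4, which encodes an inhibitor of lipoprotein lipase, went from 453, 516 and 591 to 1185, 979 and 1262, a rise of 1.11 (adjusted p = 0.00890). Car12, the other membrane carbonic anhydrase of tumours, rose by 0.49 (adjusted p = 0.00944), while the mean of its 3 probe sets did not pass (0.21, adjusted p = 0.429). The collagen lysyl hydroxylase gene Plod1 fell by 0.30 (adjusted p = 0.0239). Higd1a (-0.37) and Vldlr (-0.32) also fell. Ccng2 (0.28), outside the naming rule and picked after its value was seen, rose. None of the 4 genes Plod1, Higd1a, Vldlr and Ccng2 passed in a fit without 1 array, where their adjusted p was above 0.05 throughout and at most 0.103.

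Of 10 VEGF ligands and receptors, 3 rose (30.0%) and 7 did not pass, Vegfa among them, with a median of 0.21. Pgf encodes placental growth factor, a ligand of VEGF receptor 1. Its single probe set read 27.7, 54.5 and 24.2 in control and 418, 449 and 333 in PIK3CA shRNA arrays. Pgf rose by 3.05 with a standard error of 0.24 (95% interval 2.45 to 3.66, adjusted p = 0.00241), and by 3.54 and 2.23 at pseudocounts of 1 and 64. Flt4, the receptor for VEGF-C, went from 399, 396 and 439 to 828, 989 and 1059, a rise of 1.18 (adjusted p = 0.00346), while its second probe set read 0.21 without passing. Vegfc, the lymphatic growth factor, was dim: its brightest probe set went from 83.8, 70.6 and 85.6 to 114, 125 and 133, a rise of 0.54 (adjusted p = 0.0217). Another Vegfc probe set went from 24.3, 6.12 and 6.80 to 132, 79.6 and 107. The call of Vegfc by its brightest probe set held in 1 of the 6 fits without 1 array (adjusted p 0.0492 to 0.0767).

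In the families of single members, 2 of 16 carbonic anhydrases rose, Car9 and Car12, and 1 fell, Car6 (-0.53), a secreted form (18.8% called). Of 23 JmjC histone demethylases 3 rose (13%, near the 11.5% of all genes): Kdm3a, Kdm5a (0.32) and Uty (0.32). Kdm3b, the closest relative of Kdm3a, had a change of 0.08 (95% interval -0.15 to 0.32). Of 16 measured genes of the BNIP family and mitophagy, 2 rose and 1 fell (18.8%), with a median of -0.14. These were Gabarapl1 (0.35), Phb2 (0.29) and Map1lc3b (-0.34), a gene of the LC3 family that coats autophagosomes. Bnip3l was not analysed here. In the 6 fits without 1 array, Kdm5a, Uty, Phb2 and Map1lc3b lost their calls each time, and Gabarapl1 kept its call once (adjusted p = 0.0413).

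Of the 18 list genes that rose, 6 lie on chromosome 6: Kdm3a, Hk2, Tpi1, Kdm5a, Phb2 and Gabarapl1. With chromosome medians taken out, 21 of the 136 list genes and 1467 of all 18193 genes passed, against 28 and 2093 without this step. Limma then called 0 of the 6 on chromosome 6 (1 had an unadjusted p under 0.05), and their adjusted p ran from 0.153 for Kdm3a to 0.541 for Tpi1. Of the 10 that fell, 4 lie on chromosome 8, Ankrd37, Egln1, Siah1a and Map1lc3b, and 2 of these 4 kept their call, Ankrd37 and Siah1a. Map1lc3b then had a change of -0.05 (adjusted p = 0.696). Vegfc lies on chromosome 8 too, moved the other way from it, and read 0.83 with the chromosome median taken out (adjusted p = 0.00508).

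**Figure D4:**
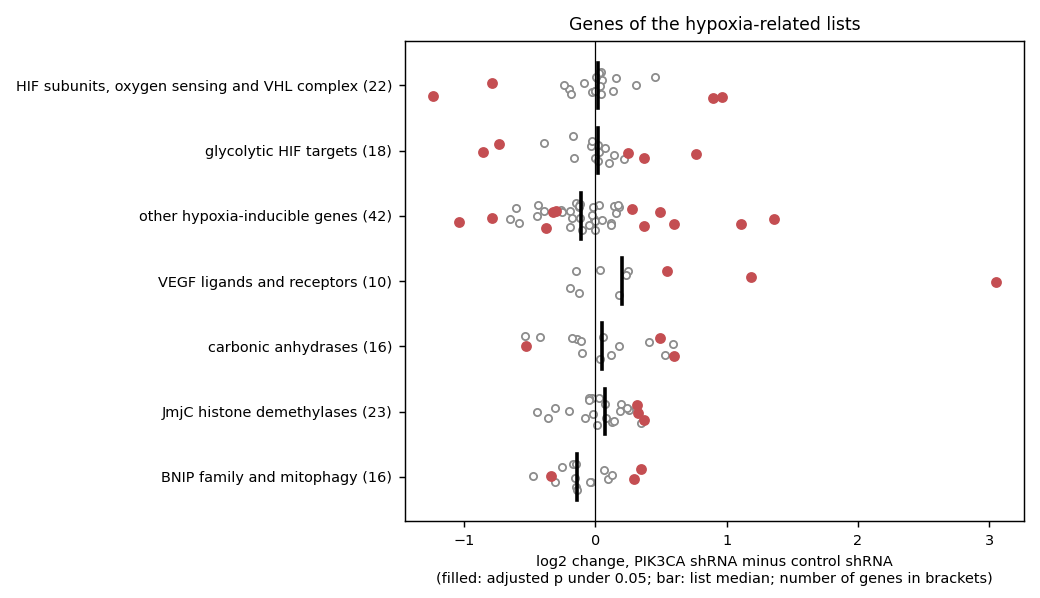
Log2 change (PIK3CA shRNA minus control shRNA) of the measured genes of 7 hypoxia-related lists, 1 point per gene, with the number of genes in brackets and the list median as a black bar. Filled points passed adjusted p 0.05, and the point farthest to the right is Pgf at 3.05. A gene on several lists is drawn in each.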

How the data were processed

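The authors deposited 45101 linear intensities for each of the 6 arrays, with 0.0359 the lowest and 17918.5 the highest on every array. These shared extremes and nearly equal quartiles (median 134.6 to 135.0) show a common scaling by a method that the sources used here do not name. Per the labels' protocols, extraction and labelling followed the manufacturer's procedure. Intensities of the 45037 non-control probe sets were put on a common median, and 16 was added to the scaled values before taking log2. Of the probe sets, 34945 had 1 gene symbol, 932 several and 9160 none listed, and 34741 matched the RefSeq table (GRCm38.p6). Each gene was represented by its brightest probe set, with no filter on dim genes. The groups were tested in R 4.3.3 with limma 3.58.1 (lmFit, eBayes, two-sided) and Benjamini-Hochberg adjustment over all genes or all probe sets. The number of arrays limits the precision. The fit was tested on simulated data with known changes. It recovered 40.3% of changes of 0.5, 61.2% of changes of 1 and 92.4% of changes of 2, with 8 false calls among 137. A gene that did not pass may therefore have changed. Fewer genes were called in the simulation than in the data, so these shares need not hold for the data. Genes named are the members, Pik3ca, up to 4 further genes per list with the smallest adjusted p among those called, any gene of a count of 5 or fewer, and the relatives Hif3a, Hif1an, Arnt, Vhl, Bnip3l, Kdm3b and Car12. Members and lists were chosen with earlier results of these data known. Alternatives varied the scaling, pseudocount, dim-gene filter, probe set choice, variance model, threshold, chromosome medians, replicate block and arrays used. Plots were made in Python 3.11.15 (matplotlib 3.10.9).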

Additional observations from a re-analysis of the deposited data

How the results depend on the processing

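Pik3ca passed under all 18 alternatives, from -1.06 to -0.74. The 2093 genes called became 413 with a replicate block, 636 at adjusted p 0.01, 3192 with a robust prior and intensity trend and 945 to 1138 without 1 array. They became 1510 with the mean of probe sets and 1554 with the probe set of the largest interquartile range. With chromosome medians taken out 1467 were called, and at a pseudocount of 64 2579. With dim genes left out, 3024 of 9097 genes were called. The 5 member genes became 3 with the replicate block, 3 with chromosome medians taken out and 3 at adjusted p 0.01. Without 1 array 3 to 4 passed. They became 4 with the probe set of the largest interquartile range, and 6 with the mean of probe sets and at a pseudocount of 64. With a robust prior and intensity trend 7 passed, and with dim genes left out 6 of the 8 that remained. The calls lost with the replicate block were those of Car9 (adjusted p = 0.0561) and Kdm3a (0.101). The 5 member probe sets became 8 of the 15 that remained with dim probe sets left out. They became 1 at adjusted p 0.01, 9 with a robust prior and intensity trend and 1 to 3 without 1 array. The share of all probe sets called under these settings is not given here, so these counts have no background beside them. With the replicate block limma called 0 of the 17, where 8 had an unadjusted p under 0.05 and the lowest adjusted p was 0.0533. The 28 list genes became 9 with the replicate block, 18 with the mean of probe sets and 17 with the most variable probe set by interquartile range. They became 12 at adjusted p 0.01, 13 to 15 without 1 array and 21 with chromosome medians taken out. At a pseudocount of 64 they became 34, and with a robust prior and intensity trend 40. With dim genes left out, 36 of the 98 that remained were called. Same-numbered arrays correlated at 0.048, -0.021 and -0.020 in their deviations from the group means, and other pairs at -0.054 to 0.072. No pairing by number showed in these values, but they cannot tell whether same-numbered arrays were prepared together. Genes that changed sign had not passed in the first place. With the mean of probe sets and with the most variable one they were Vegfa (0.0075 and 0.14), Hif3a (0.16 and 0.60), Hif1an (0.026 and 0.12), Arnt (0.067 and 0.023), Vhl (-0.047 and -0.11) and Kdm3b (-0.037 and -0.16). Vhl read -0.0095 with array weights and -0.17 with chromosome medians taken out, where Arnt read 0.021. Without 1 array the ranges were -0.00087 to 0.090 for Egln2, -0.13 to 0.095 for Hif1an, -0.091 to 0.013 for Arnt, -0.14 to 0.11 for Vhl and -0.0072 to 0.15 for Kdm3b. The cause of these changes was not tested. With dim genes left out Epas1 and Car9 have no value.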
